A study of Mus musculus with 21 samples.

Results

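The 10 genes described here encode subunits of the potassium channels that repolarise heart muscle cells. They are Kcnh2, Kcnq1 and Kcne1 (delayed rectifiers), Kcnj2, Kcnj3 and Kcnj11 (inward rectifiers), Kcnd2, Kcnd3 and Kcnip2 (transient outward current) and Kcna5 (ultra-rapid delayed rectifier). They were taken by symbol, from a set chosen with earlier results of these data known. All 10 were found among the 18762 genes of the deposited expression table. RNA came from the heart apex of ICR mice, an outbred stock, sampled at postnatal day 7 after the apex had been resected on day 1, and there were 7 groups of 3 libraries. The control libraries are titled NS, which the labels do not spell out, and their treatment label names the resection only. The protocol text is the same for all samples and names only drugs as injected, so what controls received, if anything, is not known here. The other 6 groups had the same resection followed by a drug under the skin, over 7 days according to the labels. The first of these received isoproterenol, which activates β-adrenergic receptors and speeds the heart. The 5 anti-arrhythmic groups received amiodarone, which blocks several channels and is best known for blocking the current of Kcnh2, metoprolol or propranolol, which block β-adrenergic receptors, lidocaine, which blocks sodium channels, or ivabradine, which blocks the pacemaker current. No genetic change is named for any group, doses are not in the labels, all groups carry the resection, and an uninjured heart was not analysed here. Nothing in the labels ties each library to its own animal, so p-values measure the spread between these libraries, which may be technical.

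Potassium leaving the cell ends each cardiac action potential and sets the resting voltage between beats. Delayed rectifiers open slowly during the plateau, the transient outward current shapes the early notch, and inward rectifiers hold the cell at rest. In mice the balance shifts after birth: currents carried by Kcnh2 and Kcnq1 are prominent in the fetal and newborn heart and decline, while transient outward current and inward rectifier current grow as the heart matures. Pore-forming subunits make the channel, and accessory subunits such as those from Kcne1 and Kcnip2 set its opening, its closing and how much of it reaches the membrane.

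Values were FPKM, fragments per length of transcript and per mapped total, so levels can be compared between genes. Summed over all genes, a library held 496304 to 552905 FPKM. Read counts were not analysed here, and from steps in the low values of 25 genes the relative depth of the libraries ran from 0.962 to 1.01, with the 3 controls lowest (0.962 to 0.973). The 10 cardiomyocyte markers (Myh6, Tnnt2, Tnni3, Actn2, Ryr2, Ttn, Pln, Mybpc3, Myl2 and Tcap) were abundant in every library, with summed levels of 30740 to 36701 FPKM. Markers of other tissues stood out in 4 libraries: the skeletal muscle gene Mylpf in control 3 (62.7 FPKM), the atrial gene Myl7 in isoproterenol 3 (176 FPKM), the lung gene Sftpc in amiodarone 2 (222 FPKM) and the liver gene Alb in propranolol 1 (10.8 FPKM). Results are also given without these 4 libraries where that ends a call. In such bulk RNA, fewer cells of a type and less RNA per cell cannot be told apart.

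The 10 genes spanned a wide range of levels. Over the 21 libraries the mean was 98.4 FPKM for Kcne1, which encodes the accessory subunit of the slow delayed rectifier, and 78.2 FPKM for Kcnip2, which encodes the accessory subunit of the transient outward channel. The pore genes Kcnj11 (ATP-sensitive channel) and Kcnh2 (rapid delayed rectifier) followed at 54.8 and 46.3 FPKM. Kcnq1, the pore of the slow delayed rectifier, stood at 23.3 FPKM and Kcna5 at 15.2 FPKM. The strong inward rectifier gene Kcnj2 stood at 5.77 FPKM and Kcnj3, a pore of the acetylcholine-activated channel, at 3.51 FPKM. Both pores of the transient outward current were lowest, Kcnd2 at 2.03 FPKM and Kcnd3 at 0.34 FPKM. So the accessory subunits were measured far above the pores they serve: Kcne1 was above Kcnq1, and Kcnip2 above Kcnd2 and Kcnd3, in all 21 libraries. Each step of this order held in 21 of 21 libraries, except that Kcne1 was above Kcnip2 in 19 and Kcnj2 above Kcnj3 in 20.

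Promoter sequence was available here for 7 of the 10 genes, and 2 are shown because the results turn on them: Kcnj2, the gene most often lower with an anti-arrhythmic drug, and Kcnip2, the gene with the largest rise under isoproterenol. Each is the 250 bases upstream of the RefSeq start, 5′ to 3′ on the gene's strand, in build GRCm38.p6. That build is not the mm9 build of the expression table, so the sequences serve as context only.
Kcnj2 (chr11:111065914-111066163, plus strand): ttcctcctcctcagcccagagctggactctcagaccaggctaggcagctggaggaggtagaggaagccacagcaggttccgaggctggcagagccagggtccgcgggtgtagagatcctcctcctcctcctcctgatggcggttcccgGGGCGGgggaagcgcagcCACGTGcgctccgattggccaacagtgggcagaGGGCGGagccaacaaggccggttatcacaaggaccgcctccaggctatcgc
Kcnip2 (chr19:45816064-45816313, minus strand): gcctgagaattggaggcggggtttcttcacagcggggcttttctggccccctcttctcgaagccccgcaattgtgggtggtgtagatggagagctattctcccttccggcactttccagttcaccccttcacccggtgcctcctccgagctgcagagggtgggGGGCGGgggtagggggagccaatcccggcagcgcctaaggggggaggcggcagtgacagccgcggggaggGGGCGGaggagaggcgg
Capitals mark matches, on either strand, to 6 short motifs that were searched. The GC box was taken as GGGCGG, and it is bound by factors such as Sp1 at many promoters. The cAMP response element was taken as TGACGTCA, and its core, which the full element contains, was searched as TGACG on its own. For the E-box, which basic helix-loop-helix factors bind, the letters were CACGTG in both directions. The site of GATA factors, which act in heart muscle, was taken as AGATAA on either strand of the window. The TATA box, which places the start of transcription at a minority of promoters, was taken as TATAAA. Both windows are rich in G and C (65.6% for Kcnj2 and 66.8% for Kcnip2, against a median of 52.4% over 32851 promoters), and both hold 2 GC boxes, where 32.7% of all promoters of this length hold at least 1. Kcnj2 also holds the E-box CACGTG, found in 6.02% of promoters. The letters searched for the cAMP response element (1.55% of promoters), its core (17.8%), the GATA site (9.99%) and the TATA box (12.4%) were not in either window. Other forms of these sites were not searched, so their absence is not shown. The form TGATAA for GATA factors does stand in the Kcnj2 window, on the opposite strand (ttatca). How many promoters hold that form was not counted.

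**Figure D1:**
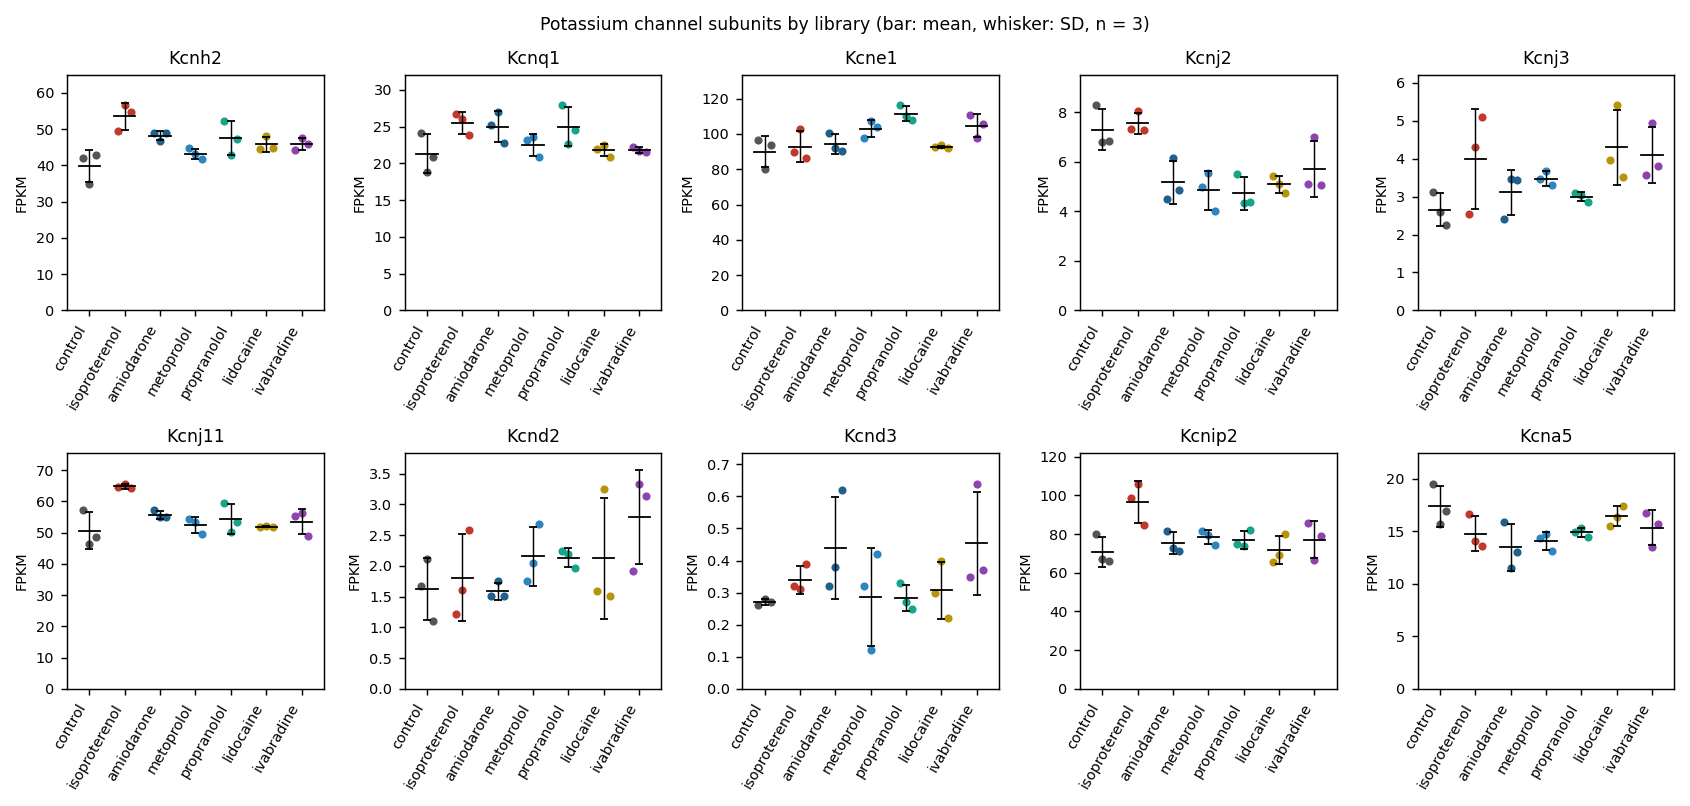
Level of each of the 10 potassium channel genes in FPKM (vertical axis, from 0) in the 7 groups. Each point is 1 library, the bar is the mean and the whisker the SD of 3 libraries. Kcnh2, Kcnj11 and Kcnip2 lie above the controls in all 3 isoproterenol libraries, and Kcnj2 lies below the controls with amiodarone, metoprolol, propranolol and lidocaine.

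Each drug was compared with the same 3 controls on the scale of log2(FPKM + 1), with limma's moderated test and Benjamini-Hochberg adjustment over the 12433 genes that reached 1 FPKM in 3 or more libraries. A gene was called at an adjusted p under 0.05. Of the 10 genes, 9 passed this filter, and Kcnd3 did not, with under 1 FPKM in all 21 libraries. With isoproterenol 4 of the 9 tested genes were higher and 0 lower, where 34.2% of all tested genes were called (8.38% higher and 25.8% lower). With amiodarone 1 was higher and 2 were lower, where 29.0% of all tested genes were called (8.47% higher and 20.6% lower). With metoprolol 1 was higher and 2 were lower (31.4% of all called, 9.48% higher and 22.0% lower). With propranolol 2 were higher and 1 was lower (26.8% of all called, 6.98% higher and 19.8% lower). With lidocaine 2 were higher and 1 was lower (37.1% of all called, 10.6% higher and 26.6% lower). With ivabradine 2 were higher and 0 lower (27.0% of all called, 7.91% higher and 19.1% lower). As a share, 22.2% to 44.4% of the 9 genes were called, close to these backgrounds. The median change of the 9 genes ran from 0.04 (lidocaine) to 0.26 (isoproterenol), while over all tested genes it ran from -0.10 to -0.08. Drug and control libraries did not overlap for 3 of the 9 genes with isoproterenol, 2 with amiodarone, 4 with metoprolol, 4 with propranolol, 3 with lidocaine and 3 with ivabradine. The same held for 44.8%, 43.6%, 46.5%, 42.6%, 48.5% and 35.9% of all tested genes, in that order. Because the 6 comparisons share their controls, a gene called with several drugs is not several independent results.

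Across the 7 groups, 5 of the 9 genes differed in limma's F test, where 39.9% of all tested genes did: Kcnj2 (adjusted p = 0.0033), Kcnh2 (0.0079), Kcnj11 (0.012), Kcne1 (0.013) and Kcnip2 (0.026). Without the 4 libraries with other-tissue markers 2 of these, Kcnh2 and Kcnj2, were called, and relative to the cardiomyocyte markers 3 genes were, Kcnj2, Kcne1 and Kcna5. Among the 5 anti-arrhythmic groups 0 of the 9 were called by the F test, where 1.06% of all tested genes were, and 1 gene, Kcne1, had an unadjusted p under 0.05 (adjusted p = 0.22).

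How the values are scaled bears on the direction of these calls. As deposited, 24.5% to 30.2% of the genes called against control were higher. After median-of-ratios rescaling of the libraries, 59.1% to 64.4% were higher. The rescaling divided the 3 controls by 1.051 to 1.078 and the drug libraries by 0.965 to 1.016. Of the 9 genes, those then called higher and lower were 5 and 0 with isoproterenol, 3 and 1 with amiodarone and 1 and 1 with metoprolol. They were 3 and 1 with propranolol, 2 and 1 with lidocaine and 4 and 0 with ivabradine. Of all tested genes, 23.3% to 31.7% were called on that scale. The mean log2 level of the 10 cardiomyocyte markers was higher than in controls, by 0.25 with isoproterenol and 0.10 to 0.15 with the other drugs. Of the 10, 6 were called higher with isoproterenol and 4 to 6 with the others, and 1 was called lower with metoprolol and with lidocaine. Of all tested genes, 6.98% to 10.6% were called higher with a drug. The summed level of the markers overlapped the controls (31915 to 34838 FPKM) with every drug. It was 34148 to 35356 FPKM with isoproterenol and from 30740 FPKM (metoprolol) to 36701 FPKM (ivabradine) with the others. When each library was set relative to the mean of these markers, the median change of all tested genes moved to between -0.34 and -0.19. On that scale 0 of the 9 genes were higher with any drug, except Kcnj3 with lidocaine. Directions below are on the deposited scale, and changes relative to the markers are given gene by gene.

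**Figure D2:**
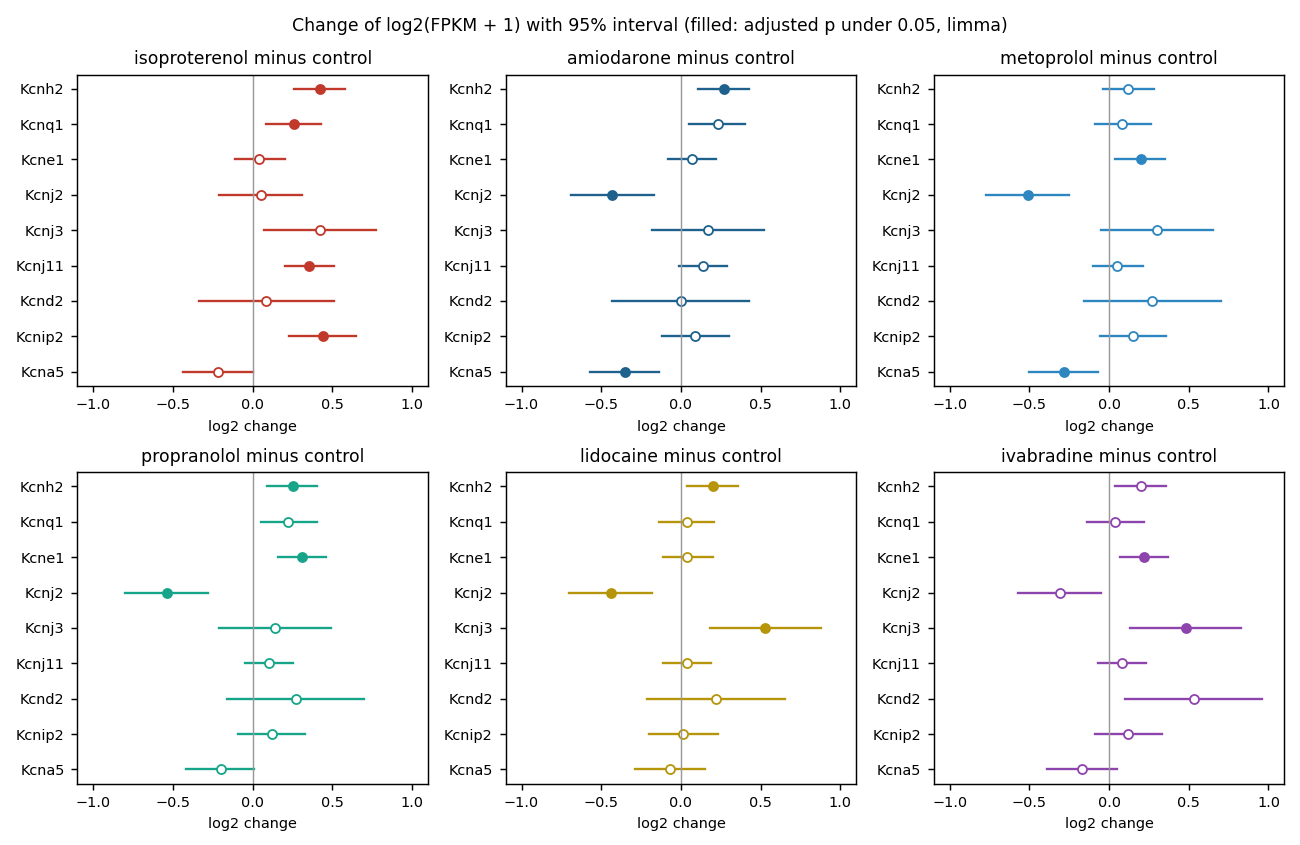
Change of log2(FPKM + 1) against the 3 shared controls for the 9 tested genes (horizontal axis, log2), 1 panel a drug, with the 95% interval from limma. Filled points passed an adjusted p of 0.05. Isoproterenol has 4 filled points to the right of 0, and Kcnj2 is filled to the left of 0 with 4 of the 5 anti-arrhythmic drugs.

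Kcnh2 (Entrez 16511) encodes the pore of the rapid delayed rectifier, the channel through which amiodarone and many other drugs prolong repolarisation. Its level was 42.1, 34.8 and 42.8 FPKM in the controls and 49.4, 56.5 and 54.6 FPKM with isoproterenol. It was 49.0, 46.7 and 49.0 FPKM with amiodarone and 52.2, 42.8 and 47.2 FPKM with propranolol. All libraries of isoproterenol, amiodarone, lidocaine and ivabradine lay above all controls. So did those of propranolol, though propranolol 2 (42.84 FPKM) was all but level with the highest control (42.80 FPKM). Metoprolol gave 44.6, 43.2 and 41.8 FPKM, lidocaine 44.4, 48.0 and 44.8 FPKM and ivabradine 44.2, 47.4 and 45.8 FPKM. The group means ran from 39.9 ± 4.43 FPKM (SD, n = 3) in controls through metoprolol, lidocaine, ivabradine, propranolol and amiodarone to 53.5 ± 3.69 FPKM (SD, n = 3) with isoproterenol. Of the 6 steps in this order the last, from amiodarone to isoproterenol, was the one between groups whose libraries did not overlap. Isoproterenol 1 (49.4 FPKM) still lay below propranolol 1 (52.2 FPKM).

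Kcnh2 was higher with isoproterenol (log2 change 0.42 ± 0.08 (SE), adjusted p = 5.7e-04), amiodarone (0.27 ± 0.08, adjusted p = 0.014), propranolol (0.25 ± 0.08, adjusted p = 0.024) and lidocaine (0.20 ± 0.08, adjusted p = 0.047). With metoprolol the difference was 0.12 ± 0.08 (adjusted p = 0.24) and with ivabradine 0.20 ± 0.08 (adjusted p = 0.057). The call with isoproterenol held without any 1 library. The amiodarone call was lost without control 2, the lowest control (0.18, adjusted p = 0.088). Propranolol's was lost without control 2 (0.15, adjusted p = 0.15), propranolol 1 (0.17, adjusted p = 0.12) or propranolol 3 (0.25, adjusted p = 0.053), and without the 4 libraries with other-tissue markers (0.23, adjusted p = 0.099) or with only the 2 groups compared in the fit (adjusted p = 0.11). Lidocaine's was lost without control 2 (0.11, adjusted p = 0.28) or any lidocaine library (0.16 to 0.22, adjusted p = 0.061 to 0.16), and with no filter, no variance trend or only the 2 groups in the fit (adjusted p = 0.056 to 0.11). Relative to the cardiomyocyte markers the change was 0.17 ± 0.08 with isoproterenol (adjusted p = 0.053), 0.13 ± 0.08 with amiodarone (adjusted p = 0.17), 0.12 with propranolol and 0.07 with lidocaine.

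Kcnq1 (Entrez 16535) and Kcne1 (Entrez 16509) together form the slow delayed rectifier. Kcnq1 was 24.1, 18.8 and 20.9 FPKM in the controls and 26.7, 26.0 and 23.8 FPKM with isoproterenol, and the groups overlapped at the highest control. The change with isoproterenol was 0.26 ± 0.08 (adjusted p = 0.026), and it was not called without control 2 or 3 or isoproterenol 1 or 2 (0.18 to 0.25, adjusted p = 0.067 to 0.15), nor with only the 2 groups compared in the fit (adjusted p = 0.076). It was 0.23 ± 0.08 with amiodarone (adjusted p = 0.051) and 0.22 ± 0.08 with propranolol (adjusted p = 0.056), and 0.04 to 0.08 with the other 3 drugs. On the scale of the cardiomyocyte markers the isoproterenol difference of Kcnq1 was 0.01 ± 0.09 (adjusted p = 0.92). In GENCODE M21, 2.96% of the exonic bases of Kcnq1 lie opposite its antisense transcript Kcnq1ot1, and since no source used here says that counting kept strand, reads of the 2 cannot be told apart there.

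Kcne1 was 96.3, 80.3 and 93.5 FPKM in the controls and 116, 110.3 and 108 FPKM with propranolol. It was 97.6, 107 and 104 FPKM with metoprolol and 110.5, 97.9 and 106 FPKM with ivabradine. All 9 of these drug libraries lay above all 3 controls. The other groups overlapped the controls, at 86.4 to 103 FPKM with isoproterenol, 90.2 to 101 FPKM with amiodarone and 91.9 to 93.5 FPKM with lidocaine. Kcne1 was higher with propranolol (0.31 ± 0.07, adjusted p = 0.0052), ivabradine (0.22 ± 0.07, adjusted p = 0.031) and metoprolol (0.20 ± 0.07, adjusted p = 0.046). The propranolol call held without any 1 library. The ivabradine call was lost without control 2 or ivabradine 1 or 3 (0.14 to 0.21, adjusted p = 0.085 to 0.18), and the metoprolol call without control 2 or 3 or any metoprolol library (0.12 to 0.23, adjusted p = 0.051 to 0.25). Both were also lost without the 4 libraries with other-tissue markers (adjusted p = 0.05 and 0.064) and with only the 2 groups in the fit (adjusted p = 0.12 and 0.092), and the metoprolol call with no filter (adjusted p = 0.066) or no variance trend (adjusted p = 0.057). Set against the cardiomyocyte markers, Kcne1 was 0.18 ± 0.08 with propranolol (adjusted p = 0.067), 0.09 ± 0.08 with metoprolol (adjusted p = 0.35) and 0.07 ± 0.08 with ivabradine (adjusted p = 0.43), so none of the 3 calls held. On the same scale, with isoproterenol it was lower, at -0.20 ± 0.08 (adjusted p = 0.029), where the deposited scale gave 0.04 ± 0.07 (adjusted p = 0.66).

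Kcnj2 (Entrez 16518) encodes the main pore of the inward rectifier that fixes the resting voltage of ventricular muscle cells. It was 8.28, 6.80 and 6.83 FPKM in the controls and 7.33, 8.05 and 7.28 FPKM with isoproterenol. It was 4.48, 6.16 and 4.87 FPKM with amiodarone, 5.00, 5.54 and 4.01 FPKM with metoprolol and 5.50, 4.32 and 4.37 FPKM with propranolol. Lidocaine gave 5.42, 5.11 and 4.75 FPKM and ivabradine 5.09, 7.02 and 5.05 FPKM. So the controls and isoproterenol were high, and 14 of the 15 anti-arrhythmic libraries lay below every control, ivabradine 2 being the exception. In the order of group means, from 4.73 ± 0.667 FPKM (SD, n = 3) with propranolol through metoprolol, lidocaine, amiodarone, ivabradine and control to 7.55 ± 0.431 FPKM (SD, n = 3) with isoproterenol, each group overlapped its neighbours.

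Kcnj2 was lower with propranolol (-0.54 ± 0.12, adjusted p = 0.005), metoprolol (-0.51 ± 0.12, adjusted p = 0.0062), lidocaine (-0.44 ± 0.12, adjusted p = 0.01) and amiodarone (-0.43 ± 0.12, adjusted p = 0.016). With ivabradine the difference was -0.31 ± 0.12 (adjusted p = 0.069), or -0.45 without ivabradine 2 (adjusted p = 0.019), and with isoproterenol 0.05 ± 0.12 (adjusted p = 0.8). The propranolol, metoprolol and lidocaine calls held without any 1 library, and the amiodarone call was lost without control 1, the highest control, or amiodarone 1 (-0.35 in each case, adjusted p = 0.063 and 0.075). These 4 calls kept their direction and passed the test under every other processing setting tried. Against the cardiomyocyte markers the changes were -0.67 to -0.57, and ivabradine was called there too (-0.46 ± 0.12, adjusted p = 0.0054). Skeletal muscle also expresses Kcnj2. Of 7 tested skeletal muscle markers 6 were called lower with isoproterenol, lidocaine and ivabradine, 4 with propranolol, 2 with metoprolol and 0 with amiodarone. Ckm was called higher with isoproterenol. Of all tested genes, 19.1% to 26.6% were called lower with a drug. The summed level of the 8 listed skeletal markers was 1703 to 1747 FPKM in controls, between 1909 and 1966 FPKM with isoproterenol and between 1510 and 1949 FPKM in the anti-arrhythmic libraries, most of it Ckm, which heart muscle also expresses, and Mylpf was 8.65, 14.7 and 62.7 FPKM in the controls. Without the 4 libraries with other-tissue markers, control 3 among them, Kcnj2 was lower by as much or more, at -0.67 with propranolol, -0.55 with metoprolol, -0.48 with lidocaine and -0.59 with amiodarone.

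Kcnj11 (Entrez 16514) encodes the pore of the ATP-sensitive channel, which opens when cell energy falls. It was 57.2, 46.3 and 48.6 FPKM in the controls and 64.5, 65.7 and 64.2 FPKM with isoproterenol, so that all isoproterenol libraries were above all controls. The 15 anti-arrhythmic libraries ran from 49.0 to 59.6 FPKM with a median of 53.5 FPKM, overlapping the controls. Kcnj11 was higher with isoproterenol (0.35 ± 0.07, adjusted p = 0.0014), and the differences with the other 5 drugs were 0.04 to 0.14 (adjusted p = 0.15 to 0.68). Relative to the cardiomyocyte markers the isoproterenol difference was 0.11 ± 0.07 (adjusted p = 0.16).

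Kcnj3 (Entrez 16519) encodes a pore of the channel that acetylcholine opens through the vagus nerve, and it is best known from the atria and pacemaker tissue. It was 3.11, 2.58 and 2.25 FPKM in the controls, 3.95, 5.40 and 3.52 FPKM with lidocaine and 3.57, 4.93 and 3.79 FPKM with ivabradine. Both drug groups lay above the controls in all libraries, and so did metoprolol, at 3.47, 3.66 and 3.29 FPKM (0.30 ± 0.17, adjusted p = 0.17 in limma's test). Kcnj3 was higher with lidocaine (0.53 ± 0.17, adjusted p = 0.02) and ivabradine (0.48 ± 0.17, adjusted p = 0.04). The lidocaine call was lost without lidocaine 2 (0.38, adjusted p = 0.11), control 2 (0.52, adjusted p = 0.053) or control 3 (0.45, adjusted p = 0.079), and the ivabradine call without ivabradine 2 (0.37, adjusted p = 0.17), ivabradine 3 (0.52, adjusted p = 0.067), control 2 (0.47, adjusted p = 0.094) or control 3 (0.40, adjusted p = 0.14). Without the 4 libraries with other-tissue markers neither was called (0.45, adjusted p = 0.072, and 0.40, adjusted p = 0.13), and the ivabradine call was also lost with no filter (adjusted p = 0.07). Relative to the cardiomyocyte markers the ivabradine call was lost (0.34, adjusted p = 0.064) and the lidocaine call held (0.40, adjusted p = 0.03).

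With isoproterenol Kcnj3 was 2.55, 4.31 and 5.10 FPKM, and the highest of these was the library in which the atrial genes Myl7 (176 FPKM), Myl4 (92.9 FPKM) and Sln (21.01 FPKM) stood apart. The Kcnj3 difference was 0.42 ± 0.17 with that library (adjusted p = 0.058) and 0.26 without it (adjusted p = 0.29), while it was called without isoproterenol 1 (0.65, adjusted p = 0.0038) or control 1 (0.51, adjusted p = 0.042). The 6 atrial markers summed to 738.5 to 1321 FPKM with isoproterenol, 571 to 1138 FPKM in controls, 283 to 795 FPKM with lidocaine and 1118 to 1250 FPKM with ivabradine. Nppa made up most of each sum, and Bmp10 was at or near 0 in every library. Of the 5 tested, 1 was called higher with isoproterenol, Myl7 (2.79 ± 0.99, adjusted p = 0.036), and 0 were called with lidocaine or ivabradine. Of all tested genes, 34.2%, 37.1% and 27.0% were called with these 3 drugs, in that order. Myl7 was 176 FPKM in isoproterenol 3 and at most 3.26 FPKM in any other library, so its call rests on 1 library. The F test of 7 groups called 0 of the 5, where it called 39.9% of all tested genes. The part of atrial tissue in the Kcnj3 values was not tested. In GENCODE M21, 31.1% of the exonic bases of Kcnj3 lie opposite the long noncoding RNA Gm26794, whose reads cannot be told apart from it without strand.

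Kcnip2 (Entrez 80906) encodes the accessory subunit on which the fast transient outward current of ventricular muscle depends. It was 79.9, 67.1 and 66.0 FPKM in the controls and 98.8, 106 and 84.7 FPKM with isoproterenol, with no overlap. The 15 anti-arrhythmic libraries ran from 65.8 to 85.7 FPKM with a median of 74.9 FPKM, across the range of the controls. Kcnip2 was higher with isoproterenol (0.44 ± 0.10, adjusted p = 0.0031), which held without any 1 library, and the differences with the other drugs were 0.01 to 0.15 (adjusted p = 0.27 to 0.92). Relative to the cardiomyocyte markers the isoproterenol difference was 0.19 ± 0.10 (adjusted p = 0.088).

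The pores that Kcnip2 serves were near the floor of the table. Kcnd2 (Entrez 16508) ran from 1.1 to 3.34 FPKM over the 21 libraries, at 1.63 ± 0.506 FPKM in controls and 2.80 ± 0.769 FPKM with ivabradine (SD, n = 3 each). The ivabradine difference, the largest of its 6, was 0.53 ± 0.20 (adjusted p = 0.062), and the 95% intervals of the other 5 all held 0. Kcnd3 (Entrez 56543) ran from 0.12 to 0.64 FPKM, at 0.26, 0.28 and 0.27 FPKM in the controls, and was not tested. In GENCODE M21, 1.72% of its exonic bases lie opposite the antisense gene Kcnd3os.

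Kcna5 (Entrez 16493) encodes a voltage-gated pore of the early repolarising current. It was 19.5, 15.7 and 16.9 FPKM in the controls, 15.9, 11.5 and 13 FPKM with amiodarone and 14.4, 14.7 and 13.2 FPKM with metoprolol. The metoprolol libraries were all below the controls, as were those of propranolol (14.45 to 15.3 FPKM), and amiodarone 1 was above the lowest control. Kcna5 was lower with amiodarone (-0.35 ± 0.10, adjusted p = 0.018) and metoprolol (-0.28 ± 0.10, adjusted p = 0.045), and the differences with the other 4 drugs were -0.22 to -0.07 (adjusted p = 0.1 to 0.61). The amiodarone call was lost without control 1 (-0.27, adjusted p = 0.074), amiodarone 2 (-0.25, adjusted p = 0.1) or the 4 libraries with other-tissue markers (-0.27, adjusted p = 0.16), and also after rescaling (-0.27, adjusted p = 0.076) and with only the 2 groups in the fit (adjusted p = 0.067). The metoprolol call was lost without control 1 or 3 or any metoprolol library (-0.31 to -0.20, adjusted p = 0.056 to 0.17), without the 4 libraries (-0.30, adjusted p = 0.068), after rescaling (-0.19, adjusted p = 0.19), and with no filter or no variance trend (adjusted p = 0.072 and 0.051). Relative to the cardiomyocyte markers Kcna5 was lower with 5 of the 6 drugs, at -0.50 ± 0.11 with amiodarone (adjusted p = 0.0017), -0.38 ± 0.11 with metoprolol (adjusted p = 0.011) and -0.47 ± 0.11 with isoproterenol (adjusted p = 0.0012), and lidocaine gave -0.20 ± 0.11 (adjusted p = 0.14).

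Markers of other cells differed from controls as well, and isoproterenol is given first. Of all tested genes, 8.38% were called higher and 25.8% lower with isoproterenol. With the other drugs 6.98% to 10.6% were called higher and 19.1% to 26.6% lower. Of 6 macrophage markers (Csf1r, Cx3cr1, Adgre1, Cd68, C1qa and Lyz2), 5 were called lower and 0 higher, and their sum was 71.0 to 163.5 FPKM against 197 to 561 FPKM in controls. Smooth muscle and pericyte markers summed to 380 to 449 FPKM with isoproterenol and 490 to 547 FPKM in controls, with 1 of 7 called lower and 1 higher. Fibroblast markers summed to 1498 to 1585 FPKM against 1400 to 2554 FPKM, with 3 of 6 called lower, and endothelial markers to 393 to 475 FPKM against 427 to 497 FPKM, with 1 of 6 called lower. Conduction system markers summed to 32.26 to 40.05 FPKM against 29.65 to 34.22 FPKM, with 1 of 5, the pacemaker channel gene Hcn4, called higher, and neuronal and glial markers to 2.60 to 3.07 FPKM against 3.41 to 6.24 FPKM, with 1 of 2 tested called lower. With the other drugs macrophage markers were called lower in 4 of 6 with metoprolol, propranolol, lidocaine and ivabradine and 1 of 6 with amiodarone, with sums of 103 to 377 FPKM. Fibroblast markers were called lower in 3 of 6 with propranolol, 2 with lidocaine and 1 with each of the other 3, and endothelial markers in 3 of 6 with ivabradine and 1 with each of the other 4. The part of such cells in the differences of the 9 genes, the calls of Kcnj2, Kcne1 and Kcnj3 included, was not tested, beyond the values relative to the cardiomyocyte markers given above.

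Comparisons among the drugs leave the control means out, although the control libraries still enter the shared estimate of spread. Isoproterenol was set against the mean of the 5 anti-arrhythmic groups, and 4 of the 9 genes were higher and 0 lower, where 22.8% of all tested genes were called (9.51% higher and 13.3% lower). Kcnj2 was higher with isoproterenol by 0.49 ± 0.10 (adjusted p = 0.0014), at 7.33, 8.05 and 7.28 FPKM against 4.01 to 7.02 FPKM in the 15 anti-arrhythmic libraries (median 5.05), with no overlap. Kcnj11 was higher by 0.27 ± 0.06 (adjusted p = 0.0021), also with no overlap, where 8.78% of all tested genes had none. Kcnip2 was higher by 0.34 ± 0.08 (adjusted p = 0.0043) and Kcnh2 by 0.21 ± 0.06 (adjusted p = 0.014), each with libraries that overlapped. The Kcnj2, Kcnj11 and Kcnip2 calls held without any 1 library and under every setting tried, the one relative to the cardiomyocyte markers included (0.38 for Kcnj2, 0.15 for Kcnj11 and 0.22 for Kcnip2). The Kcnh2 call was lost relative to those markers (0.10, adjusted p = 0.22) and without the 4 libraries with other-tissue markers (0.21, adjusted p = 0.059), isoproterenol 2 (0.17, adjusted p = 0.1) or isoproterenol 3 (0.20, adjusted p = 0.079).

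Amiodarone, which blocks several channels, that of Kcnh2 among them, was set against the mean of the other 4 anti-arrhythmic groups. In limma's test 0 of the 9 genes were called and 1, Kcne1, had an unadjusted p under 0.05 (-0.12 ± 0.06, adjusted p = 0.54), where 0.273% of all tested genes were called. For Kcnh2 the difference was 0.08 ± 0.06, with a 95% interval of -0.04 to 0.21 (adjusted p = 0.78), which holds 0. The β-blockers metoprolol, which prefers the main cardiac β receptor, and propranolol, which does not, gave 0 calls among the 9 genes in limma's test and 0 with an unadjusted p under 0.05, where 0.0483% of all tested genes were called. Differences between them ran from -0.14 (Kcnq1, 95% interval -0.32 to 0.04) to 0.16 (Kcnj3, -0.19 to 0.51), and for Kcnj2 the difference was 0.03 (-0.23 to 0.29). Metoprolol and propranolol libraries did not overlap for Kcne1 (97.55 to 107.33 and 107.75 to 116.17 FPKM) and Kcnj3 (3.29 to 3.66 and 2.86 to 3.08 FPKM). The share of all tested genes with no overlap between these groups is not given here.

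**Figure D3:**
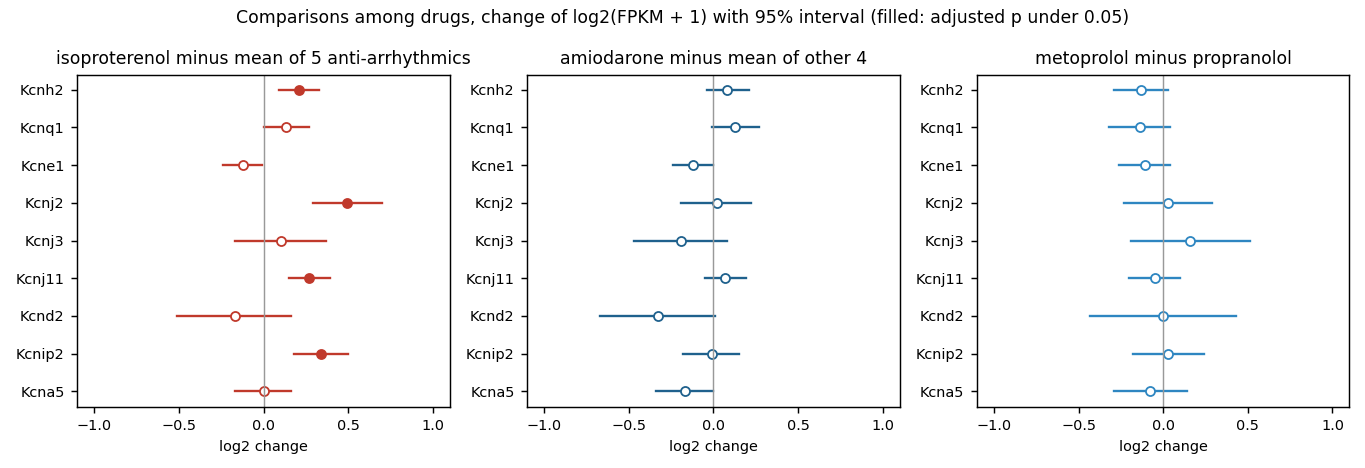
Change of log2(FPKM + 1) of the 9 tested genes (horizontal axis, log2) in the 3 comparisons among drug groups, with 95% intervals from limma; filled points passed an adjusted p of 0.05. Against the 5 anti-arrhythmic groups isoproterenol has 4 filled points, all to the right of 0, and the other 2 panels have 0.

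Ratios of FPKM within a library do not depend on how libraries are scaled. The ratio of Kcnj11 to Kcnj2 was 6.91, 6.80 and 7.12 in the controls, between 8.17 and 8.82 with isoproterenol and between 8.02 and 12.8 in the anti-arrhythmic libraries. All 18 drug libraries lay above all 3 controls. How often other pairs of genes part the controls from all drug libraries was not tested. For single genes, the libraries of 1 drug and the controls did not overlap for 35.9% to 48.5% of all tested genes. The controls also had the lowest relative depth, as given above. The difference in the ratio, controls minus drugs, was -0.56 log2 (p = 7.5e-04 by a two-sided exact permutation test, adjusted p = 0.018 over 24 tests). That p is the lowest that 3 against 18 libraries can give. The test shuffles single libraries and so treats the 18 as alike, although they fall into 6 drug groups of 3. Leaving out any control gave -0.58 to -0.54 and raised the smallest possible p, so that the adjusted p was 0.12, and without the 4 libraries with other-tissue markers it was -0.60 (adjusted p = 0.11). In the tests of single genes above, Kcnj11 was called higher and Kcnj2 was not called with isoproterenol, while Kcnj2 was called lower and Kcnj11 was not called with 4 of the anti-arrhythmic drugs.

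The ratio of Kcne1 to Kcnq1, accessory subunit to pore of the slow delayed rectifier, was 4.24 ± 0.24 (SD, n = 3) in controls. It was lowest with isoproterenol, at 3.36 to 3.94 (mean 3.64), with amiodarone close to it at 3.40 to 3.99 (mean 3.78). The ratio was highest with ivabradine, at 4.97, 4.52 and 4.91. Isoproterenol against the 15 anti-arrhythmic libraries gave -0.26 log2 (exact permutation test, two-sided, p = 0.013, adjusted p = 0.12). Without amiodarone 2, the lowest of the 15 at 3.40, it gave -0.29 (adjusted p = 0.018). This test too takes no account of the drug groups. For 3 libraries against 3 the exact permutation test cannot go below p = 0.1, so no drug could pass against the controls alone. The ratio of Kcnh2 to Kcnq1, the rapid to the slow delayed rectifier pore, had group means from 1.88 to 2.11, and 0 of its 8 comparisons passed (exact permutation tests, adjusted p = 0.3 to 0.87). Ratios with Kcnd3 were not computed because of its low level.

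**Figure D4:**
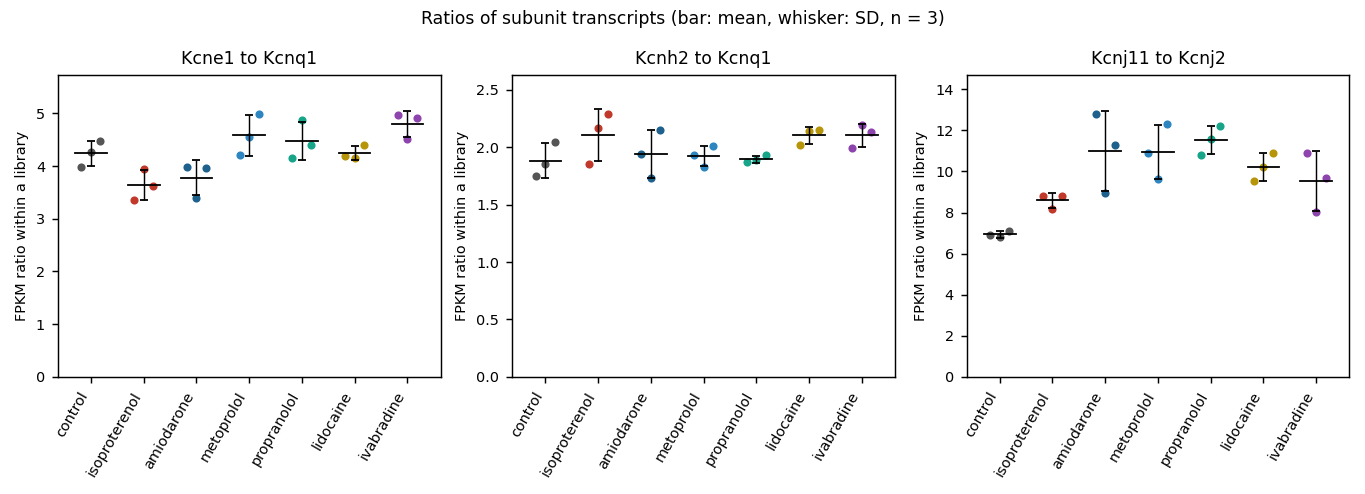
Ratio of FPKM within each library (vertical axis, from 0) for 3 pairs of subunit genes in the 7 groups; points are libraries, bars means and whiskers SD of 3 libraries. For Kcnj11 to Kcnj2 the controls lie at 6.80 to 7.12 and all 18 drug libraries at 8.02 or above.

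Other potassium channel genes were followed as a list of 50, of which 23 passed the filter. Counts for higher and lower were 9 and 2 with isoproterenol, 6 and 2 with amiodarone and 5 and 1 with metoprolol. They were 2 and 2 with propranolol, 4 and 3 with lidocaine and 3 and 2 with ivabradine. As a share, 47.8%, 34.8%, 26.1%, 17.4%, 30.4% and 21.7% of the 23 were called, in that order. Of all tested genes, 34.2%, 29.0%, 31.4%, 26.8%, 37.1% and 27.0% were. The F test called 13 of the 23 among the 7 groups (56.5%, against 39.9% of all tested genes). Among the 5 anti-arrhythmic groups it called 0 (1.06% of all tested genes). Median changes of the 23 ran from -0.06 (isoproterenol) to 0.15 (amiodarone). These values, and those of the depolarising genes, are on the deposited scale and were not set against the cardiomyocyte markers.

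Kcnj5, the partner of Kcnj3 in the acetylcholine-activated channel, had the largest F of the list. It was 22.3, 15.8 and 17.6 FPKM in the controls and 30.6, 33.6 and 32.4 FPKM with isoproterenol, with no overlap. Kcnj5 was higher with isoproterenol (0.78 ± 0.11, adjusted p = 1.0e-04), amiodarone (0.54 ± 0.11, adjusted p = 0.003) and metoprolol (0.38 ± 0.11, adjusted p = 0.019), and higher with isoproterenol than with the anti-arrhythmic drugs (0.50 ± 0.09, adjusted p = 6.5e-04). Kcnn1, a calcium-activated channel, was 2.69 to 2.81 FPKM in controls and 3.6 to 4.38 FPKM with isoproterenol (0.41 ± 0.10, adjusted p = 0.0033), and the differences with the other drugs were -0.14 to 0.15. Kcnj12, another pore of the resting inward rectifier, was higher with isoproterenol (0.37 ± 0.08), amiodarone (0.40 ± 0.08) and metoprolol (0.24 ± 0.08; adjusted p = 0.0021 to 0.033).

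Kcng2, a modifying subunit of voltage-gated channels, was higher with all 6 drugs (0.18 to 0.32, adjusted p at most 0.04). Abcc9, the sulfonylurea receptor that surrounds Kcnj11 or Kcnj8 in ATP-sensitive channels, was higher with 5 drugs (0.41 to 0.52) and at 0.33 ± 0.12 with propranolol (adjusted p = 0.053). Kcnj8, the vascular pore of that channel, was lower with amiodarone (-0.15 ± 0.06, adjusted p = 0.043) and lidocaine (-0.21 ± 0.06, adjusted p = 0.0068). Kcnk3, a leak channel, was higher with isoproterenol, amiodarone and lidocaine (0.32 to 0.35). Kcnab2, an accessory β subunit, was lower with isoproterenol (-0.54 ± 0.12, adjusted p = 0.0031) and metoprolol (-0.40 ± 0.12, adjusted p = 0.021).

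Depolarising channels and the sodium-calcium exchanger, a list of 16 with 10 tested, had 7 of 10 called by the F test among the 7 groups (39.9% of all tested genes) and 0 among the 5 anti-arrhythmic groups (1.06% of all). With isoproterenol 5 were higher and 0 lower (8.38% and 25.8% of all tested genes), and with the anti-arrhythmic drugs 3 or 4 were higher and 1 lower (6.98% to 10.6% and 19.1% to 26.6% of all tested genes). Slc8a1, the exchanger, was higher with all 6 drugs (0.56 to 1.22), with isoproterenol below the mean of the anti-arrhythmic groups (-0.41 ± 0.13, adjusted p = 0.028). Cacna1h, a T-type calcium channel, was higher with isoproterenol (0.66 ± 0.14, adjusted p = 0.0019), and the differences with the other 5 were -0.23 to 0.18. Cacnb2, an L-type accessory subunit, was higher with amiodarone, metoprolol, lidocaine and ivabradine (0.24 to 0.51).

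**Figure D5:**
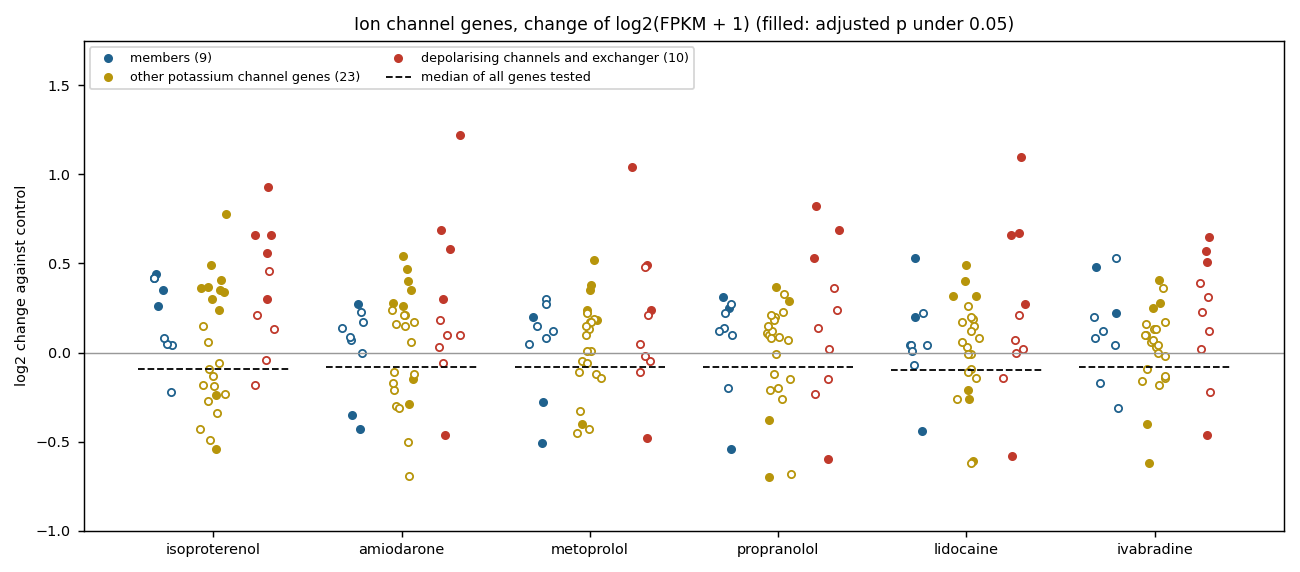
Change of log2(FPKM + 1) against control (vertical axis, log2) of the 9 tested potassium channel subunit genes (called members in the key), of 23 other potassium channel genes and of 10 depolarising channel genes, by drug. Filled points passed an adjusted p of 0.05, and the dashed line is the median of all 12433 genes tested, -0.10 to -0.08.

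Likeness of expression was described by Pearson's r of log2(FPKM + 1) over the 21 libraries, which fall into 7 groups and share depth and scaling, with no test. Kcnh2 was most like Aldh5a1 (r = 0.858, and 0.666 within groups), Klhl21 (0.843 and 0.443) and Smyd1 (0.833 and 0.535). Kcnj11 was most like Lpar3 (0.909 and 0.745), Pdk2 (0.904 and 0.766) and Ppp1r13l (0.853 and 0.681), and Kcnip2 most like Fdft1 (0.866 and 0.743), Flot1 (0.811 and 0.842) and Pdk2 (0.799 and 0.502). For Kcnj2 it was Letm2 (0.830 and 0.672), Fn3krp (0.827 and 0.535) and Mettl7a1 (0.819 and 0.425). The first gene was Ezr for Kcnq1 (0.854), Hist1h2ao for Kcne1 (0.765), Fitm2 for Kcnj3 (0.858), Fgl2 for Kcnd2 (0.758) and Ddah2 for Kcna5 (0.898). Among the 9 genes themselves the highest r was between Kcnh2 and Kcnj11 (0.81, and 0.62 within groups), followed by Kcnq1 and Kcnj11 (0.77 and 0.76). Kcnip2 and Kcnd2, which serve the same channel, had r = -0.26 (-0.48 within groups), and Kcne1 and Kcnq1 had 0.32 (0.53 within groups).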

How the data were processed

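RNA-seq of 21 heart apex libraries was used. The authors deposited 1 table of FPKM values, with 2 decimals. Reads were processed with HISAT and Bowtie2 2.2.5 on build mm9, per the submitters' processing notes. The counting tool, the annotation release, filters and strand use are not given in the sources used here. Libraries were grouped by the labels, 3 a group, and 0 value columns were left unmapped.

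The 12433 of 18762 genes that reached 1 FPKM in 3 or more libraries were tested on log2(FPKM + 1) with limma 3.58.1 in R 4.3.3. The fit had 1 mean per group, a variance trend, 14 residual degrees of freedom and Benjamini-Hochberg adjustment at 0.05, and was tested on simulated data. Within-library FPKM ratios were compared with exact two-sided permutation tests over single libraries, computed in Python 3.11.15 with numpy 2.4.6 and adjusted over 24 tests. Relative depth came from steps in low FPKM values of 25 genes, of which 97.9% lay within 0.1 of a whole read. Standard errors follow a ± sign after a log2 change, and SD after an FPKM mean.

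The members and all lists (other potassium channels, depolarising channels, regulators, cell type markers) were chosen with earlier results of these data known. Named beyond the members are listed potassium channel genes called in the F test of 7 groups with the 4 largest F or called with isoproterenol or amiodarone, up to 10, up to 5 depolarising genes by F-test p, and for each member the 3 genes of highest r. Some genes that this rule names are not reported here. Promoters came from RefSeq (GRCm38.p6). Other settings tried were rescaling, no filter or one at 5 FPKM, 0.1 as the pseudocount, fewer groups, no trend, robust moderation, a replicate block, fewer libraries and values relative to cardiomyocyte markers.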

Additional observations from a re-analysis of the deposited data

How the results depend on the processing

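All values here are log2 differences unless a count is named, and the cause of each change was not tested, except that the filter at 5 FPKM removes Kcnj3 and Kcnd2 and that leaving out libraries raises the smallest possible p of the exact tests. The number of the 9 genes called against control with metoprolol, 3 as reported, was 1 with no filter, with no variance trend and without the 4 libraries with other-tissue markers. With ivabradine, 2 as reported, it was 1 with no filter, with the filter at 5 FPKM, with only the groups compared and without the 4 libraries, and 4 after median-of-ratios rescaling. With isoproterenol, 4 as reported, it was 2 relative to the cardiomyocyte markers, neither of them among the 4. The F test of 7 groups, 5 as reported, gave 2 without the 4 libraries and 3 relative to the cardiomyocyte markers. Leaving out 1 library at a time gave 1 to 2 calls with metoprolol, 2 to 5 with propranolol, 1 to 3 with lidocaine, 0 to 3 with ivabradine and 3 to 6 in the F test.

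Libraries with the same replicate number did not vary together: over 63 such pairs the correlation of their deviations from the group means ran from -0.54 to 0.29 (median -0.03), so the numbers were not used as pairs. With the replicate number as a block, ivabradine gave 4 calls, and the other counts stayed within 1.5 times the reported ones. The block ended the calls of Kcne1 with metoprolol (0.20, adjusted p = 0.056) and Kcnh2 with lidocaine (0.20, adjusted p = 0.058). It added Kcnj3 with isoproterenol (adjusted p = 0.046), Kcnq1 with amiodarone and propranolol (0.033 and 0.036), and Kcnj2 and Kcnd2 with ivabradine (0.049 and 0.048).

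Differences that changed sign were all among those not called as reported. With a pseudocount of 0.1, Kcnd2 was 0.01 with amiodarone and 0.00 between metoprolol and propranolol. After rescaling, Kcnd2 was 0.05 with amiodarone and -0.01 between the β-blockers, and Kcna5 was 0.03 with lidocaine and 0.02 for isoproterenol against the anti-arrhythmic drugs. Without the 4 libraries, Kcnd2 was -0.26 with isoproterenol and Kcnip2 -0.03 with lidocaine, and isoproterenol against the anti-arrhythmic drugs gave -0.05 for Kcnj3 and 0.03 for Kcna5. Also without them, amiodarone against the other 4 gave -0.07 for Kcnj2 and 0.01 for Kcnip2, and Kcnj11 was 0.02 between the β-blockers. Relative to the cardiomyocyte markers, isoproterenol gave -0.20 for Kcne1, -0.20 for Kcnj2 and -0.16 for Kcnd2, and amiodarone -0.08 for Kcne1, 0.00 for Kcnj11 and -0.06 for Kcnip2. On that scale metoprolol gave -0.02 for Kcnq1 and -0.05 for Kcnj11, and propranolol -0.03 for Kcnj11 and -0.01 for Kcnip2. Lidocaine gave -0.09 for Kcnq1, -0.08 for Kcne1, -0.09 for Kcnj11 and -0.11 for Kcnip2, and ivabradine -0.10 for Kcnq1, -0.06 for Kcnj11 and -0.03 for Kcnip2. Isoproterenol against the anti-arrhythmic drugs gave -0.02 for Kcnj3, and amiodarone against the other 4 gave 0.00 for Kcnj2.

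Leaving out 1 library at a time also moved some uncalled differences across 0. Against control, Kcnd2 ran from -0.11 to 0.24 with isoproterenol, -0.16 to 0.13 with amiodarone and -0.02 to 0.36 with lidocaine, and Kcne1 from -0.03 to 0.09 with isoproterenol and lidocaine and -0.01 to 0.12 with amiodarone. Kcnj11 ran from -0.01 to 0.14 with metoprolol and -0.02 to 0.13 with lidocaine, Kcnq1 from -0.04 to 0.13 with lidocaine and ivabradine, Kcnip2 from -0.06 to 0.10 and Kcna5 from -0.14 to 0.01 with lidocaine. Isoproterenol against the anti-arrhythmic drugs gave -0.06 to 0.33 for Kcnj3 and -0.09 to 0.05 for Kcna5, and amiodarone against the other 4 gave -0.09 to 0.10 for Kcnj2 and -0.07 to 0.03 for Kcnip2. Between the β-blockers Kcnj2 ran from -0.06 to 0.13, Kcnd2 from -0.11 to 0.10, Kcnj11 from -0.10 to 0.02 and Kcnip2 from 0.00 to 0.08.

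For the ratios, Kcnj11 to Kcnj2 in controls against the 18 drug libraries was -0.60 without the 4 libraries and -0.58 to -0.54 without 1 library, and isoproterenol against the 15 anti-arrhythmic libraries ran from -0.33 to -0.26, passing without ivabradine 2. Kcne1 to Kcnq1 for the same comparison ran from -0.32 to -0.21, passing without amiodarone 2. In controls against the 18, Kcne1 to Kcnq1 was -0.07 without the 4 libraries, 0.00 with 1 FPKM added to both parts and -0.04 to 0.05 without 1 library, and with lidocaine -0.04 to 0.04. Kcnh2 to Kcnq1 ran from -0.03 to 0.12 with amiodarone, -0.02 to 0.10 with metoprolol and -0.04 to 0.08 with propranolol without 1 library, and was -0.01 for isoproterenol against the 15 without the 4 libraries.

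Read counts were not analysed here, so no counting error is given for single values, and Kcnd2 and Kcnd3 lie where it weighs most.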

Other observations

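A further list held 11 tested regulators of these channels, mostly transcription factors. Of these, 1 was called higher with isoproterenol, 3 with amiodarone, 2 with metoprolol, 1 with propranolol, 3 with lidocaine and 1 with ivabradine. Lower were 1 with metoprolol, 1 with lidocaine and 2 with ivabradine. Of all tested genes, 6.98% to 10.6% were called higher and 19.1% to 26.6% lower with a drug, and 1.06% among the 5 anti-arrhythmic groups. Irx3, a transcription factor of the ventricular conduction system, is named after its values were seen. It was 39.2 to 43.4 FPKM in the controls and 15.6 to 21.4 FPKM with ivabradine, with no overlap (log2 change -1.11 ± 0.15 (SE), adjusted p = 1.1e-04, limma). Irx3 was also lower with lidocaine (-0.86 ± 0.15, adjusted p = 5.0e-04) and metoprolol (-0.49, adjusted p = 0.023), and it was the 1 gene of the list called among the 5 anti-arrhythmic groups (F test, adjusted p = 0.011).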
